A study of Mus musculus with 4 samples.

Results

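The regions described here are the TCF7L2 peaks of mouse heart ventricle that lay in acetylated chromatin and carried no GATA4. A TCF7L2 peak was taken when it shared 1 bp or more with a peak of H3K27ac, histone H3 acetylated at lysine 27, and no bp with a GATA4 peak. The members were thus chosen by overlap of the 3 peak lists. The rule gave 392 of 774 TCF7L2 peaks, 50.6% of the list (95% Wilson interval 47.1 to 54.2), and they held 49.2% of its bp. They are called GATA4-free acetylated peaks below. These overlaps describe the choice and carry no test. The other TCF7L2 peaks serve as the background: 253 in H3K27ac with GATA4, 61 with GATA4 outside H3K27ac, and 68 with neither.

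The chromatin came from cardiac ventricles of wild-type (WT) C57BL/6 mice at postnatal day 6, with no treatment. Each immunoprecipitation pooled 10 hearts and used 2 µg of antibody, and the labels give 2 biological replicates per antibody. Each antibody has 1 deposited peak list, so no value has a replicate error, and the intervals cover counting error over peaks only. The lists hold 774 TCF7L2, 10530 GATA4 and 75011 H3K27ac peaks as positions in the mm9 build, without height, fold or read count, and the depth is unknown. Ventricle contains several cell types, and a TCF7L2 peak and an H3K27ac peak at the same place need not come from the same cells. The tissue could not be checked against marker genes, because the lists give no levels and no gene names.

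TCF7L2 is a DNA-binding protein of the TCF/LEF family. Without a Wnt signal such factors bind DNA with TLE co-repressors, and with a signal β-catenin is recruited to them and target genes are transcribed. GATA4 is a zinc-finger factor needed for heart development that binds many regulatory regions of cardiomyocyte genes. H3K27ac marks active promoters and enhancers.

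GATA4-free acetylated peaks were narrow. Their median width was 190.5 bp (95% interval 180 to 206), with quartiles of 151 and 257.5 bp and a range of 29 to 812 bp. Those with GATA4 in H3K27ac had a median of 222 bp (204 to 235) and a range of 116 to 1155 bp. The medians were 200 bp (187 to 209) for TCF7L2 peaks with GATA4 outside H3K27ac and 164.5 bp (148 to 186) for those with neither. The intervals of the medians without and with GATA4 in H3K27ac overlapped narrowly, and the quartile ranges overlapped widely. Overlap itself depends on width. When overlap was taken from the 200 bp around each TCF7L2 and GATA4 midpoint, the deposited widths had medians of 193 bp (181 to 207) without GATA4 and 220 bp (202 to 232) with it. In each of the 6 classes of H3K27ac width used below, the GATA4-free peaks had the lower median, for example 187 bp against 211 bp in H3K27ac peaks of 20 kb or more. Cut at the quartiles of width, 71.2% (63.8 to 77.6) of the narrowest acetylated TCF7L2 peaks were GATA4-free, 116 of 163 up to 156 bp wide, and 51.6% (43.8 to 59.3) of the widest, 81 of 157 of 272 bp or more. In both classes between, the share was 60%.

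**Figure D1:**
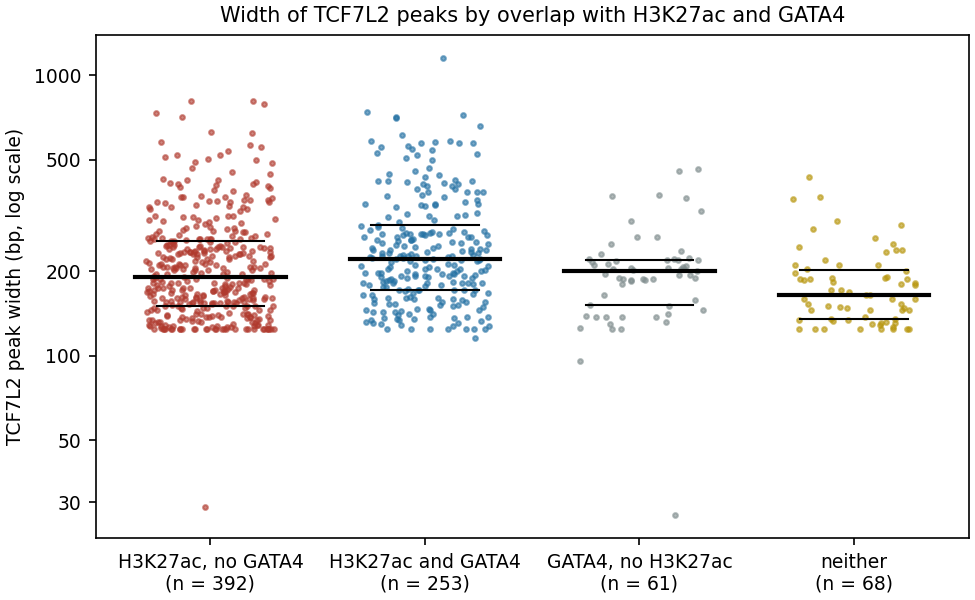
Width of each TCF7L2 peak in bp on a log axis, by overlap with H3K27ac and GATA4. Each point is 1 peak, the thick line is the median and the thin lines are the quartiles; GATA4-free acetylated peaks have a median of 190.5 bp and peaks with both a median of 222 bp, with widely overlapping clouds.

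The most common TCF7L2 width was 125 bp. Of the 392, 94 were 125 to 150 bp wide, 24.0% (20.0 to 28.4), against 22.2% of all TCF7L2 peaks, 15.0% (11.1 to 19.9) of the acetylated ones with GATA4 and 41.2% (30.3 to 53.0) of those with neither. Only 1 of the 392 was narrower. It spanned 29 bp at chr6:124691401-124691429 and ended 1 bp short of a GATA4 peak of 125 bp, so it also lay closest to the limit of the rule. At the other end, 15 were wider than 500 bp, against 21 of the 253 with GATA4.

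The 10 widest GATA4-free peaks differed in their surroundings. The widest, 812 bp at chr1:74634100-74634911, lay near the centre of an H3K27ac peak of 7.97 kb that held no GATA4, and the nearest GATA4 peak was 67.2 kb away. The second, 809 bp at chr6:48551564-48552372, shared an H3K27ac peak of 6.25 kb with another TCF7L2 peak, and its nearest GATA4 peak was 46.7 kb away. The peak of 731 bp at chr2:30639805-30640535 lay in an H3K27ac peak of 23.2 kb with 1 GATA4 peak 11.9 kb away. A peak of 707 bp at chr1:180247918-180248624 had a GATA4 peak at 211 bp. One of 626 bp at chr15:98783464-98784089 had none within 34.6 kb. The narrowest peak of the 10, 553 bp at chr11:98636821-98637373, lay in an H3K27ac peak of 79.0 kb that held 6 GATA4 peaks, the nearest of them 7.26 kb away. Those of 578 bp at chr5:101104028-101104605 and 563 bp at chr13:21597946-21598508 reached past the border of their H3K27ac peaks, which were 2.30 and 0.751 kb wide. The remaining 2 of the 10 lay side by side on chromosome 11 and are described below. In 7 of the 10, the H3K27ac peak held no GATA4 at all, close to the share over all GATA4-free peaks, 281 of 392.

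The H3K27ac peaks around GATA4-free peaks were broad. Their median width was 6.90 kb (6.12 to 7.97), with quartiles of 3.41 and 16.5 kb, and the median over all H3K27ac peaks was 1.29 kb (1.27 to 1.30). Around acetylated TCF7L2 peaks with GATA4 it was 7.63 kb (6.22 to 8.92), an interval that contains the GATA4-free value. H3K27ac peaks of 2 kb or more held 352 of the 392 GATA4-free peaks, 89.8% (86.4 to 92.4), and 90.9% (86.7 to 93.9) of those with GATA4; 38.9% of all H3K27ac peaks are that wide. A broad peak offers more room for a TCF7L2 peak. Per Mb of acetylated DNA, the GATA4-free peaks numbered 0.974 (exact Poisson interval 0.545 to 1.61) in H3K27ac peaks under 1 kb and 1.33 (0.859 to 1.96) at 1 to 2 kb. The density was highest at 2 to 5 kb, with 2.12 (1.75 to 2.56), and was 1.65 (1.33 to 2.04) at 5 to 10 kb, 1.51 (1.18 to 1.91) at 10 to 20 kb and 1.32 (1.04 to 1.64) at 20 kb or more. The interval at 2 to 5 kb did not overlap those of the narrowest and the broadest class and did overlap the others. For acetylated TCF7L2 peaks with GATA4 the density was also highest at 2 to 5 kb, with 1.26 per Mb (0.977 to 1.61). It was 0.714 (0.357 to 1.28) under 1 kb and 0.839 (0.625 to 1.10) at 20 kb or more.

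**Figure D2:**
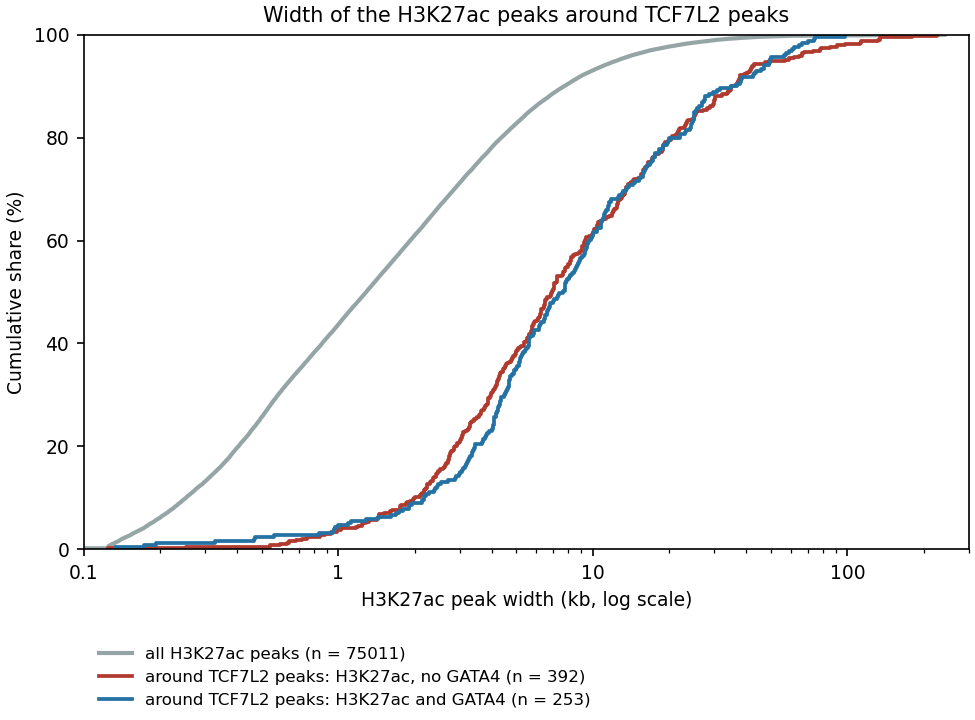
Cumulative share of H3K27ac peaks (vertical axis, %) by width (horizontal axis, kb, log scale) around GATA4-free TCF7L2 peaks, around TCF7L2 peaks with GATA4, and in the whole H3K27ac list. The 2 TCF7L2 curves run close together, with medians of 6.90 and 7.63 kb, to the right of the whole list with 1.29 kb.

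The share of GATA4-free peaks among acetylated TCF7L2 peaks varied little with the width of the H3K27ac peak. Over all widths it was 60.8% (57.0 to 64.5). It was 57.7% (38.9 to 74.5) under 1 kb, 67.6% (51.5 to 80.4) at 1 to 2 kb, 62.7% (55.4 to 69.5) at 2 to 5 kb, 57.8% (49.9 to 65.3) at 5 to 10 kb, 60% (51.1 to 68.3) at 10 to 20 kb and 61.1% (52.5 to 69.0) at 20 kb or more. All 6 intervals contain the overall share. The first class holds 15 GATA4-free peaks and the second 25. Over the same classes the share of H3K27ac peaks that held a GATA4 peak anywhere went from 0.723% (0.637 to 0.821) to 61.3% (59.0 to 63.6). These are unlike measures. The GATA4-free share depends on overlap with the TCF7L2 peak alone, while a broader H3K27ac peak has more room for GATA4 anywhere in it.

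The 392 peaks lay in 377 H3K27ac peaks, 0.503% of the H3K27ac list, which made up 2.26% of its bp. Of these, 364 held 1 GATA4-free peak, 11 held 2 and 2 held 3. In 12 of the 377 a TCF7L2 peak with GATA4 lay in the same H3K27ac peak. Another TCF7L2 peak of any kind was present in the H3K27ac peak for 39 of 392, 9.95% (7.36 to 13.3), against 8.53% over all acetylated TCF7L2 peaks and 6.32% (3.93 to 10.0) of those with GATA4. The shares without and with GATA4 differed by 3.62 percentage points (Newcombe interval -0.890 to 7.75).

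The H3K27ac peaks with 3 GATA4-free peaks had no GATA4 in them. On chromosome 11, an H3K27ac peak of 2.72 kb at chr11:108781213-108783936 held TCF7L2 peaks of 788, 622 and 245 bp, with gaps of 0.294 and 0.286 kb between them. The first 2 are among the 10 widest. A GATA4 peak of 178 bp at chr11:108779121-108779298 lay 2.33 kb before the first, in the neighbouring H3K27ac peak. On chromosome 8, an H3K27ac peak of 7.06 kb at chr8:28085179-28092239 held TCF7L2 peaks of 157, 519 and 288 bp, and no GATA4 peak lay within 286.2 kb of any of them. No other window of 100 kb held 3 GATA4-free peaks, and 16 windows held 2. Where 2 or more shared an H3K27ac peak, in 13 cases, the first 2 were a median of 0.260 kb apart (0.134 to 5.51). Of these 13 H3K27ac peaks, 8 had no GATA4. Among all 392 GATA4-free peaks, 281 lay in an H3K27ac peak without GATA4.

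**Figure D3:**
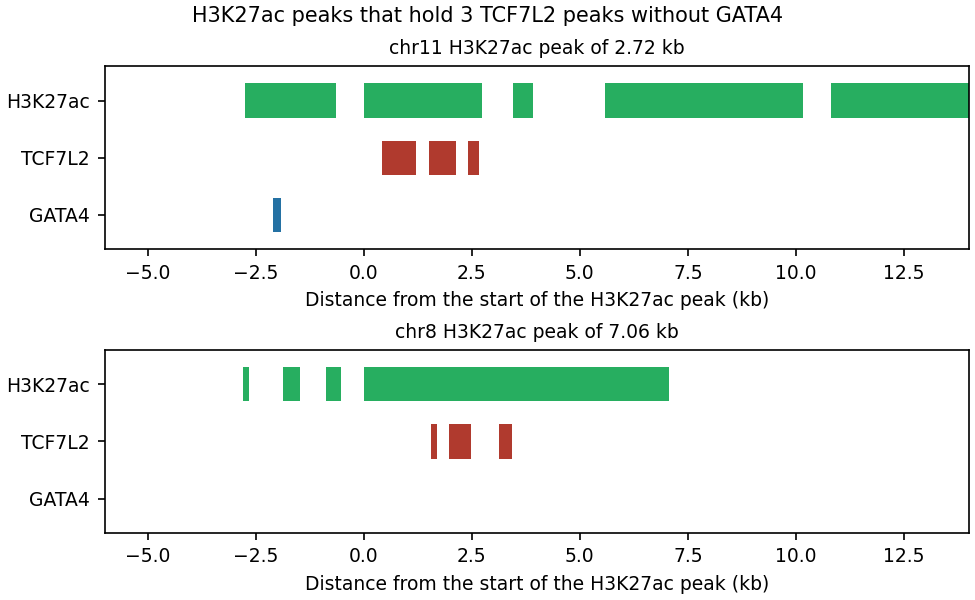
The 2 H3K27ac peaks that each hold 3 GATA4-free TCF7L2 peaks, with all H3K27ac, TCF7L2 and GATA4 peaks drawn to scale by distance in kb from the start of the H3K27ac peak. The 3 TCF7L2 peaks lie close together in each, and the single GATA4 peak drawn, on chromosome 11, is in the H3K27ac peak before it.

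Most GATA4-free peaks were wholly covered by H3K27ac. This was so in 374 of 392 cases, 95.4% (92.9 to 97.1), while 18 reached past a border and 5 had their midpoint at or past it. With GATA4 the covered share was 94.1% (90.4 to 96.4). The rule required overlap, and a TCF7L2 peak far narrower than its H3K27ac peak is mostly covered wherever it lies. The shares thus say little about a preferred place. The median gap to the nearer border was 1783 bp (1527 to 2126), against 1945 bp (1673 to 2173) with GATA4. Within 500 bp of a border or across it lay 18.9% (15.3 to 23.0) of the GATA4-free peaks and 13.8% (10.1 to 18.6) of those with GATA4, a difference of 5.04 points (-0.934 to 10.6). On a scale of 0 at the centre and 1 at the border of H3K27ac peaks of 2 kb or more, the 352 GATA4-free peaks had a mean position of 0.439 ± 0.269 (SD) and the 230 with GATA4 a mean of 0.412 ± 0.255 (SD). The means differed by far less than the spread within each class.

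The gap from a GATA4-free peak to the nearest GATA4 peak had a median of 33.1 kb (26.1 to 41.3), with quartiles of 7.86 and 84.8 kb and a range from 1 bp to 1401 kb. For comparison, the gap to the nearest GATA4 peak other than the overlapping one was 28.6 kb (23.6 to 38.6) for acetylated TCF7L2 peaks with GATA4. It was 88.7 kb (45.8 to 126.4) for TCF7L2 peaks with neither mark, an interval that did not overlap that of the GATA4-free peaks. Within 50 kb of the midpoint, 59.9% (55.0 to 64.7) of the GATA4-free peaks had a GATA4 peak, and 63.2% (57.1 to 68.9) of the GATA4-carrying ones had another. Over all TCF7L2 peaks the share was 57.1%. Within 100 kb the shares were 79.6% (75.3 to 83.3) and 79.4% (74.0 to 84.0). Within 500 kb, 385 of the 392 had one, as did 252 of the 253 with GATA4 and 62 of the 68 with neither.

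**Figure D4:**
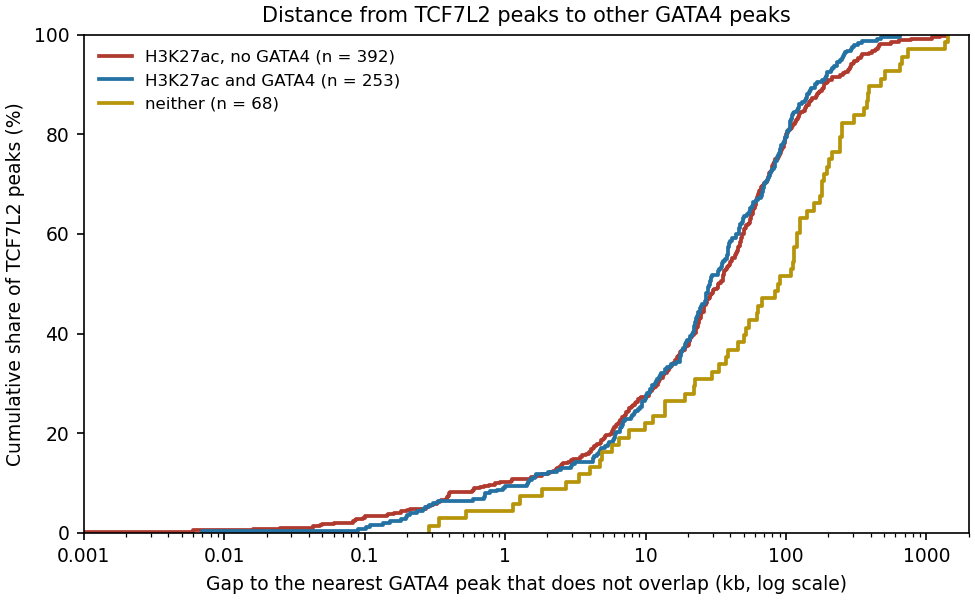
Cumulative share of TCF7L2 peaks (vertical axis, %) by gap to the nearest GATA4 peak that does not overlap them (horizontal axis, kb, log scale). The curves of the acetylated peaks without and with GATA4 run close together, with medians of 33.1 and 28.6 kb, and that of TCF7L2 peaks with neither lies farther out, with 88.7 kb.

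A gap under 1 kb was found for 40 of 392 GATA4-free peaks, 10.2% (7.58 to 13.6). Of the 253 peaks with GATA4, 24 had another GATA4 peak that close, 9.49% (6.46 to 13.7). The gap was under 100 bp for 12 GATA4-free peaks, 100 to 500 bp for 20 (5.10%) and 500 to 1000 bp for 8 (2.04%). With GATA4 the counts were 2, 14 (5.53%) and 8 (3.16%), and GATA4 peaks in the list never lie closer than 51 bp to each other. Just inside the rule, after the peak with a gap of 1 bp, came peaks at chr13:52860920-52861189, chr12:41172089-41172328, chr2:152221859-152222005 and chr6:29338456-29338798 with gaps of 6, 16, 25 and 43 bp. Just outside it, TCF7L2 peaks at chr11:77795306-77795435, chr15:5066249-5066442, chr7:80682749-80682936, chr2:163223651-163223775 and chr8:81552051-81552209 shared 3, 6, 11, 24 and 28 bp with GATA4. On the side of acetylation, the members with the least H3K27ac shared 12 bp (chr4:130141546-130141778), 29 bp (the narrow peak on chromosome 6), 43 bp (chr9:86916349-86916816), 68 bp (chr9:49607028-49607154) and 79 bp (chr11:17564112-17564243). The nearest GATA4-free peaks without H3K27ac missed it by 84 bp (chr2:172764790-172765040), 97 bp (chr4:55545385-55545548), 119 bp (chr17:80790880-80791171), 134 bp (chr7:31385011-31385378) and 186 bp (chr9:118817454-118817654).

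The most remote from GATA4 was a peak of 141 bp at chr9:99143563-99143703, in a lone H3K27ac peak of 2.58 kb, with 1401 kb to the nearest GATA4 peak and another TCF7L2 peak 24.6 kb away. Next were chr5:128097812-128097947 at 1254 kb, in an H3K27ac peak of 10.0 kb, and chr5:38430409-38430644 at 1103 kb, in one of 2.92 kb. The fourth, on the X chromosome at chrX:151650578-151651112, was 535 bp wide and 779.8 kb away. The fifth, chr15:34167360-34167782, was 641.0 kb away although 16 H3K27ac peaks, its own included, lay within 50 kb of it.

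Inside the same H3K27ac peak, a GATA4 peak stood apart from the TCF7L2 peak in 111 of 392 cases, 28.3% (24.1 to 33.0). Of the TCF7L2 peaks with GATA4, 72 of 253 had a further GATA4 peak in the H3K27ac peak, 28.5% (23.3 to 34.3). The difference was -0.142 points (-7.36 to 6.84). Over all H3K27ac peaks the share with GATA4 was 8.67%, but those peaks are far narrower. From 2 kb upwards each of the 3 shares was higher in each wider class. At 2 to 5 kb, 5.41% (2.50 to 11.3) of GATA4-free peaks had GATA4 elsewhere in the H3K27ac peak, 7.58% (3.28 to 16.5) of the GATA4-carrying ones had another, and 11.1% (10.6 to 11.6) of all H3K27ac peaks of that width held GATA4. At 5 to 10 kb the values were 16.9% (10.5 to 26.0), 18.5% (10.9 to 29.6) and 21.5% (20.6 to 22.4). At 10 to 20 kb they were 40.3% (29.7 to 51.8), 37.5% (25.2 to 51.6) and 36.5% (34.96 to 38.2), and at 20 kb or more 73.8% (63.2 to 82.1), 72.5% (59.1 to 82.9) and 61.3% (59.0 to 63.6). The intervals of the GATA4-free and GATA4-carrying peaks overlapped in every class. Against all H3K27ac peaks of the same width, the GATA4-free share was lower at 2 to 5 kb and at 5 to 10 kb and higher in both wider classes. The intervals overlapped in each of these 4 classes. At 20 kb or more, the GATA4-free interval nevertheless lay above the 61.3% of all H3K27ac peaks, and the GATA4-carrying interval contained it. Differences from all H3K27ac peaks were not computed. The H3K27ac peaks of each width include those with TCF7L2, and the shares count presence at least once for each peak.

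**Figure D5:**
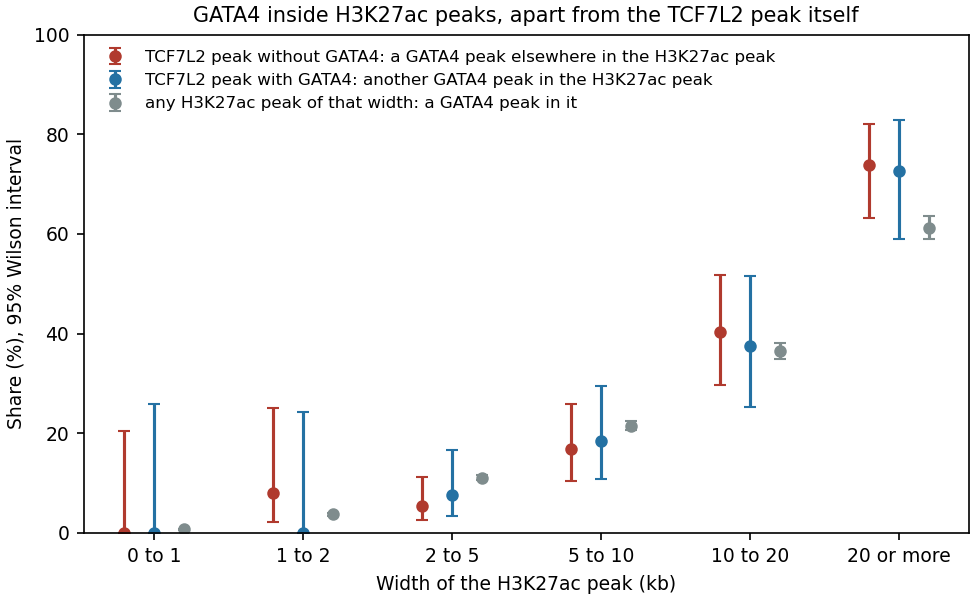
Share (%, with 95% Wilson intervals) of TCF7L2 peaks with a GATA4 peak elsewhere in their H3K27ac peak, for GATA4-free and GATA4-carrying TCF7L2 peaks, and share of all H3K27ac peaks that hold GATA4, by width of the H3K27ac peak in kb. From 2 kb upwards all 3 are higher in each wider class, and the intervals of the 2 TCF7L2 series overlap in each class.

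The 111 GATA4-free peaks with GATA4 elsewhere in the H3K27ac peak and the 281 without it had like widths, with medians of 196 bp (170 to 218) and 190 bp (179 to 206). Their H3K27ac peaks were unlike, with medians of 21.8 kb (17.5 to 29.7) and 4.96 kb (4.28 to 5.79). Part of that follows from the choice, since a broad peak has more room for GATA4. The nearest GATA4 peak was a median of 3.06 kb (1.65 to 4.999) away in the first case and 57.8 kb (48.9 to 64.3) in the second. In H3K27ac peaks of 2 kb or more, the mean position was 0.498 ± 0.254 (SD, 109 peaks) with GATA4 elsewhere and 0.412 ± 0.273 (SD, 243 peaks) without. Where the H3K27ac peak held exactly 1 GATA4 peak, in 67 cases, the TCF7L2 peak lay farther from the centre than GATA4 in 33, 49.3% (37.7 to 60.9). The GATA4 peak nearest to it was on the other side of the centre in 38 of the 111, 34.2% (26.1 to 43.5).

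The 5 GATA4-free peaks in the widest H3K27ac peaks lay in 4 of them, which held 3 to 19 GATA4 peaks each. A peak of 225.0 kb at chr1:73948132-74173104 held 19 GATA4 peaks and a single TCF7L2 peak, 197 bp wide, 5.78 kb from the nearest of them. On chromosome 8, the H3K27ac peak of 179.8 kb held 8 GATA4 peaks, the nearest 5.86 kb from the TCF7L2 peak at chr8:11399754-11399920. An H3K27ac peak of 134.1 kb at chr4:45414621-45548750 held 2 GATA4-free peaks, 16.8 kb apart, and 7 GATA4 peaks, at least 29.8 kb from either. On chromosome 11 a TCF7L2 peak at chr11:117193577-117193806 lay 12.4 kb from the nearest of 3 GATA4 peaks in an H3K27ac peak of 131.4 kb. No GATA4 was present in the 5 narrowest H3K27ac peaks with a GATA4-free peak, of 0.125 to 0.628 kb. Over the whole H3K27ac list, GATA4 was present in 0.723% of peaks under 1 kb and 61.3% of those of 20 kb or more. Absence in the narrowest was therefore the usual state for that width.

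On a wider scale, H3K27ac peaks within 12.5 kb of each other were joined into stretches, and the longest 5%, 1036 stretches of 90.0 kb or more, were called long. Long stretches contained 138 of the 392 GATA4-free peaks, 35.2% (30.6 to 40.1). The share was 30.8% (25.5 to 36.8) with GATA4, a difference of 4.37 points (-3.12 to 11.6), and 28.6% over all H3K27ac peaks. It was 37.3% (36.3 to 38.4) for acetylated GATA4 peaks, and 40.3% of the summed stretch length was in long ones. In 74 of the 138 the H3K27ac peak itself held no GATA4, a lower share than the 281 of 392 over all GATA4-free peaks. The H3K27ac peak stood alone in its stretch for 17.9% (14.4 to 22.0) of the GATA4-free peaks and 23.3% (18.5 to 28.9) of those with GATA4, a difference of -5.46 points (-12.0 to 0.839), and 12.5% of all H3K27ac peaks did. A GATA4 peak was present somewhere in the stretch for 54.6% (49.6 to 59.5) of the GATA4-free peaks, and a further one for 52.2% (46.0 to 58.3) of the GATA4-carrying peaks. In the 100 kb centred on the peak, H3K27ac covered a median of 33.9% (29.6 to 38.7) around GATA4-free peaks and 27.1% (23.1 to 31.6) with GATA4, with overlapping intervals. These values include the H3K27ac peak that the rule required.

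Differences between acetylated TCF7L2 peaks without and with GATA4 were computed for 11 shares. Shares by TCF7L2 width and by class of the nearest TCF7L2 peak were not among them. For widths of 125 to 150 bp, the shares of 24.0% (20.0 to 28.4) and 15.0% (11.1 to 19.9) had intervals that did not overlap. Of the 11 differences, the interval left out 0 for 1. The nearest GATA4 peak not overlapping the TCF7L2 peak was itself acetylated for 344 of 392 GATA4-free peaks, 87.8% (84.1 to 90.6), and for 236 of 253 with GATA4, 93.3% (89.5 to 95.8). The difference was -5.53 points (-9.91 to -0.774), and -5.82 points (-10.1 to -1.23) on autosomes. In the whole GATA4 list, 8358 of 10530 peaks were acetylated, a lower share than in either class. Both classes were chosen inside H3K27ac, and any GATA4 peak in the same H3K27ac peak is acetylated by definition. Such a GATA4 peak was present for 111 of 392 and 72 of 253, so part of the excess over the list follows from the choice. For TCF7L2 peaks with neither, which were chosen outside H3K27ac, the nearest GATA4 peak was acetylated in 32 of 68 cases, 47.1% (35.7 to 58.8). The intervals are not adjusted for the number of shares compared. The 48 GATA4-free peaks with an unacetylated nearest GATA4 peak were 99.4 kb (60.9 to 162.5) from it at the median, and the other 344 were 27.1 kb (22.9 to 36.0) away. The H3K27ac peaks of the 48 were narrower, 3.91 kb (2.66 to 5.47) against 7.77 kb (6.55 to 9.31). Part of both contrasts follows from the split, since a GATA4 peak in the same H3K27ac peak is acetylated by definition. With GATA4 in it, the H3K27ac peak had a median width of 21.8 kb and the gap to GATA4 a median of 3.06 kb. Without it, the medians were 4.96 kb (4.28 to 5.79) and 57.8 kb (48.9 to 64.3).

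Other TCF7L2 peaks were rarely close. The nearest was a median of 491.3 kb (366.9 to 567.4) away for GATA4-free peaks and 388.9 kb (318.8 to 479.8) for those with GATA4. Within 50 kb, 15.1% (11.9 to 18.9) of the GATA4-free peaks had another TCF7L2 peak, against 14.7% of all TCF7L2 peaks. The nearest other TCF7L2 peak was itself GATA4-free and acetylated for 196 of 392, 50% (45.1 to 54.9), close to the 50.6% such peaks make up of the list. When only the 59 with a neighbour under 50 kb were taken, it was so for 37, 62.7% (49.95 to 73.9). For TCF7L2 peaks with GATA4, the nearest neighbour was GATA4-free and acetylated more often, for 58.5% (52.3 to 64.4). That interval lay above 50.6% and overlapped the interval of the GATA4-free peaks. With a neighbour under 50 kb the share was like that of the GATA4-free peaks, 20 of 31 or 64.5% (46.9 to 78.9).

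GATA4-free acetylated peaks were found on all 19 autosomes and the X chromosome. Chromosome 11 had most, 39, or 0.328 per Mb (0.234 to 0.449), and the fewest per Mb on an autosome were on chromosome 14, 8 or 0.0655 per Mb (0.0283 to 0.129). TCF7L2 peaks of any kind were also densest on chromosome 11, with 0.556 per Mb. Among autosomes they were sparsest on chromosome 14, with 0.172 per Mb. Relative to acetylated DNA, the autosomes together had 1.56 GATA4-free peaks per Mb of H3K27ac (1.41 to 1.72). Single autosomes ran from 0.867 (0.374 to 1.71) on chromosome 14 to 1.97 (1.22 to 3.02) on chromosome 15. The intervals are wide, and that of each of the 19 autosomes contained 1.56. The X chromosome had 9, or 0.0551 per Mb (0.0252 to 0.105), and 3.27 per Mb of H3K27ac (1.50 to 6.21) on 2.75 Mb. That interval also contained the autosomal 1.56. None of these 9 had GATA4 in its H3K27ac peak, and the nearest GATA4 peak was 37.6 to 779.8 kb away. Their H3K27ac peaks were narrow, with a median of 2.37 kb and a maximum of 10.1 kb. Over all chromosomes, 5.41% of GATA4-free peaks in H3K27ac peaks of 2 to 5 kb had GATA4 elsewhere in them. The share of acetylated TCF7L2 peaks that were GATA4-free ran from 40% (8 of 20) on chromosome 14 to 77.8% (14 of 18) on chromosome 18, and the interval of each of the 20 chromosomes contained the overall 60.8%.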

How the data were processed

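The members, measures and comparisons were chosen with earlier results of these data known. The build is mm9, and the submitters' processing notes name MACS2 (version 2.1.1.20160309.0), Bowtie2 (version 2.2.6.2), deepTools and FastQC (version 0.10.0). How the authors combined replicates, set the peak threshold or filtered regions is not given in the sources used here. Deposited values are the start and end positions, printed 1-based.

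Overlap needed 1 bp. The H3K27ac peak with most shared bp was assigned to each TCF7L2 peak. Shares have Wilson intervals, differences of shares Newcombe intervals, densities exact Poisson intervals, and medians order-statistic intervals, all at 95%. Neighbouring peaks are not independent, so the intervals may be too narrow. No test was made, since each antibody has 1 list. Regions were named by fixed ranks: width, gap to GATA4, bp in H3K27ac, width of the H3K27ac peak, and number of peaks per H3K27ac peak and per 100 kb window. The gene and promoter tables at hand are for GRCm38.p6, so start sites, motifs, gene lists and sequences were not analysed here; nor was the input. The interval arithmetic was tested on simulated data. Intervals came from statsmodels 0.14.6 and scipy 1.17.1, run in Python 3.11.15 with pandas 2.3.3 and numpy 2.4.6.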

Additional observations from a re-analysis of the deposited data

How the results depend on the processing

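Of 41 alternative values over 9 results, 35 stayed inside the 95% interval of the value reported. The alternatives were H3K27ac over 50% of the TCF7L2 peak, no GATA4 within 1 kb, 200 bp windows, autosomes only and H3K27ac peaks joined across 1 kb. Further ones were other stretches, midpoint distances, only H3K27ac peaks of 5 kb or more, and all TCF7L2 peaks per Mb. Some settings kept nearly all of the 392 peaks, 387 with 50% cover and 383 on autosomes, so those values had little room to move. Without any GATA4 peak within 1 kb, GATA4-free acetylated peaks made up 45.5% of the list, the median distance to GATA4 was 42.3 kb, and 20.2% had GATA4 elsewhere in the H3K27ac peak. This setting removes the 40 nearest peaks by construction. With H3K27ac peaks joined across 1 kb, the median width around them was 8040.5 bp. With the longest 10% of stretches, which takes in more stretches, 48.98% lay in a long stretch. Over all chromosomes there were 0.152 GATA4-free acetylated peaks per Mb and 0.300 TCF7L2 peaks of any kind. The second value is another quantity, though it was counted among the 41 and among the 6 outside the interval. The 4 results that need an mm9 genome or annotation (start sites, the TCF/LEF and GATA motifs, gene lists) were not run. No paired analysis was possible because each antibody has 1 list with no replicate number. Read depth is unknown, so which places were missed by the GATA4 list for lack of reads was not tested.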
